A study of Oikopleura dioica with 67 samples.

Results

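The first cleavages of the larvacean tunicate Oikopleura dioica were followed by comparing whole embryos of the 4-cell and 8-cell stages with fertilized eggs and 2-cell embryos. The comparison used 12 of the 67 RNA sequencing libraries of the series: 3 libraries of 4-cell embryos and 3 of 8-cell embryos, against 3 of fertilized eggs and 3 of 2-cell embryos, all chosen by their stage labels. All 12 came from a wild-type Japanese population kept at 20 °C in laboratory culture, were strand-specific, and received no treatment according to the labels. Neighbouring stages (unfertilized egg, 16-cell, 32-cell and later, 3 libraries each) and a second set of libraries, with animal hemispheres, vegetal hemispheres and whole embryos at 8 cells (4 libraries each, not strand-specific), were used to follow the same unigenes, and the neighbouring and later staged libraries also entered the fit that estimated the spread. Nothing in the labels says that libraries of a stage came from separate cultures, so the p-values measure the spread between these libraries.

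In most animals the first divisions run on RNA and protein that the mother loaded into the egg. During the maternal-to-zygotic transition this maternal RNA is degraded, in large part by deadenylation and decapping, while the embryo's own genome starts to be transcribed. Oikopleura dioica is a fast-developing relative of the vertebrates with a compact genome and a fixed cell lineage, and its embryos make the first tissue decisions at very low cell numbers. Levels are in RPKM, reads scaled to the length of the assembled transcript (unigene) and to the size of the library, so they can be compared between genes within a library. The gene symbols follow vertebrate genes, and roles named below are those known in vertebrates or, for general cell machinery, in yeast. Because RPKM is a share of the library, less of a transcript in each embryo and more of other RNA cannot be told apart, and in whole embryos neither can fewer cells of a type and less RNA per cell.

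The libraries of the compared stages differed in more than stage. They held 11249424 to 46975042 reads in the 4- and 8-cell libraries and 12381048 to 47131044 in the fertilized-egg and 2-cell libraries. Lane 4 of the sequencer carried 2 of the 6 libraries of 4- and 8-cell embryos (036 and 037) and 5 of the 6 of fertilized eggs and 2-cell embryos, while the others were on lane 6, where 042 was the single fertilized-egg library. A share headed %SS in the authors' deposited sequencing table, not explained there, was 74.6% to 99.9% in the 4- and 8-cell libraries and 85.9% to 99.9% in the others, with medians of 81.01% and 99.92%. Library 036 was the single 4-cell library at 99.9%, and 042 the single fertilized-egg library below it. With that share as a covariate in a fit of the 12 libraries only 6 unigenes were higher and 3 lower, and its part in the differences cannot be told apart from stage. In the same table the names of libraries 042 and 043 join 3 numbers with plus signs, whose meaning is not given, and without these 2 libraries 133 unigenes were higher and 1007 lower. Ribosomal protein transcripts made up 45.6% to 56.7% of the summed RPKM in the 4- and 8-cell libraries and 35.03% to 43.7% in the fertilized-egg and 2-cell libraries.

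Transcripts that were lower at the 4- and 8-cell stages far outnumbered those that were higher. Of 18704 unigenes tested with limma on log2(RPKM + 1), 240 were higher (1.28% of all tested) and 1385 lower (7.4%) at a Benjamini-Hochberg adjusted p under 0.05. The called unigenes had median log2 differences of 1.05 and −1.50, and 8 rose and 222 fell by 4-fold or more. All 6 libraries of one side lay above all 6 of the other for 119 of the 240 and 557 of the 1385, where 1.36% and 4.06% of all unigenes tested had such groups in that direction. The preponderance of lower calls depended on scaling: with quantile normalization, which forces all libraries to one distribution, 310 were higher (1.66%) and 394 lower (2.11%), and after rescaling without ribosomal proteins 419 were higher (2.24%) and 1068 lower (5.71%). The spread came from all 43 staged libraries, and a fit of the 12 libraries alone had 435 higher and 1171 lower, with 171 of the 240 and 844 of the 1385 called again. With lane as a term, 264 were higher (1.41%) and 1047 lower (5.6%), and 174 of the 240 and 898 of the 1385 were called again. Within lane 4 alone 66 were higher (0.353%) and 121 lower (0.647%), with 49 of the 240 and 119 of the 1385 called again. Within lane 6 alone 355 were higher (1.9%) and 1038 lower (5.55%), with 120 and 518 called again and 72 of the 1385 on the other side of 0. Lane 6 has a single fertilized-egg library, which is assumed there to vary like the other groups. Inside neither lane did the groups overlap for 179 of the 240 and 796 of the 1385, where 3.51% and 6.59% of all unigenes tested had such groups. Among the 7882 unigenes with a mean of 1 RPKM or more over the 12 libraries, the median log2 difference was −0.39 as deposited and 0.03 after quantile normalization, and 2.89% were called higher and 17.3% lower. For the same unigenes these shares were 3.4% and 4.19% with quantile normalization and 3.17% and 13.2% with lane as a term. Changes of single genes and gene groups are read against that shift and those shares below.

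Genes for transcription factors at or near 0 in the egg were among the clearest rises. Klf2, a zinc-finger factor of the Krüppel-like family (unigene OD_K25COV4_DN28017_c0_g5_i1), was at 3.34, 1.55 and 1.81 RPKM in the 4-cell libraries and 4.72, 7.0 and 8.203 RPKM in the 8-cell libraries, against 0 in all 3 fertilized-egg and all 3 2-cell libraries. It was also at 0 in the 3 unfertilized-egg libraries, so the groups did not overlap and every 4-cell library was above every earlier one. The log2 difference was 2.28 ± 0.19 (SE, limma adjusted p = 2.68e-09), and the step from 2-cell to 4-cell was called for this unigene alone (4-cell minus 2-cell, log2 1.65 ± 0.27, limma adjusted p = 0.0143, with 1428 unigenes at an unadjusted p under 0.05). That step was not called for Klf2 without any 1 of the 2-cell libraries 012, 013 and 014, nor in the fit of the 12 libraries alone. Klf2 went on to 51.7, 47.8 and 18.2 RPKM in the 16-cell libraries and 35.04, 44.9 and 46.95 RPKM in the 32-cell libraries, and was back at 0.81 to 1.29 RPKM at 1.5 hours post fertilization (hpf). Above 1.5 RPKM in every library from 4 to 32 cells, it was below 0.2 RPKM in the mean from 2.5 hpf on.

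VAX1, a homeobox gene of the ventral forebrain and eye in vertebrates (OD_K21COV15_DN6800_c0_g2_i1), followed the same onset with a longer course. Its levels were 1.23, 0.857 and 0.77 RPKM in the 4-cell libraries and 3.24, 5.23 and 3.70 RPKM in the 8-cell libraries, against 0, 0 and 0.0673 RPKM in fertilized eggs and 0 in all 3 2-cell libraries. No library of the later stages reached down to the earlier ones (log2 difference 1.62 ± 0.21, limma adjusted p = 5.07e-06). The mean was 15.5 RPKM at the 16-cell stage, 94.9 RPKM at 1.5 hpf and 12.7 RPKM at 5 hpf.

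SNAI2, a Snail-family repressor known for its part in mesoderm and cell movement, rose with overlapping groups. It was at 7.46, 5.72 and 10.9 RPKM in 4-cell and 7.28, 9.15 and 13.1 RPKM in 8-cell libraries, against 0.922, 0.753 and 0.289 RPKM in fertilized eggs and 6.20, 4.19 and 1.46 RPKM in 2-cell libraries. The highest 2-cell library overlapped the lowest 4-cell library, and the fertilized eggs stood apart from both (log2 difference 1.83 ± 0.29, limma adjusted p = 6.88e-05). At the 8-cell stage SNAI2 RNA lay almost wholly in the vegetal hemisphere, which gives rise to endoderm and mesoderm in tunicates: the second set held 24.6 ± 4.61 RPKM in vegetal and 0.438 ± 0.435 RPKM in animal hemispheres (SD, n = 4 each), a log2 difference of 4.19 ± 0.28 (limma adjusted p = 2.68e-09). In that set 62 unigenes were vegetal-higher (0.395% of 15697) and 1 animal-higher (0.00637%), and 3 of the 236 early-cleavage risers tested there were among the 62. Klf2 was not called between the hemispheres: it had 33.03, 37.4, 55.04 and 64.7 RPKM in vegetal and 52.5, 50.4, 126 and 154 RPKM in animal hemispheres. Equal numbers pair these libraries, and Klf2 and VAX1 were each lower in the vegetal hemisphere in 4 of 4 pairs. Their adjusted p was above the threshold in the fit used here, which does not take the pairing into account.

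TEAD4, the DNA-binding partner of the Hippo pathway's co-activators, was present in the egg at a low level and rose. It was at 11.3, 10.3 and 6.01 RPKM in 4-cell and 14.2, 18.3 and 16.0 RPKM in 8-cell libraries, against 2.63, 3.96 and 1.46 RPKM in fertilized eggs and 4.56, 2.68 and 4.63 RPKM in 2-cell libraries. The groups did not overlap (log2 difference 1.65 ± 0.29, limma adjusted p = 0.000218). The TEAD4 mean went from 16.2 RPKM at 8 cells down to 7.56 RPKM at 16 cells. It was 11.56 RPKM at 2.5 hpf and 96.05 RPKM at 5 hpf. SUFU, a negative regulator of Hedgehog signalling, had a smaller rise with overlapping groups, at 4.51 to 16.5 RPKM in 4- and 8-cell libraries against 0.885 to 7.16 RPKM in fertilized eggs and 2-cell embryos (log2 difference 1.03 ± 0.26, limma adjusted p = 0.0078).

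Transcripts that the egg lacked were few. Of the 240 risers 32 (13.3%) had an egg mean below 1 RPKM, where 56.7% of all tested unigenes did, and 17 were below 1 RPKM in every fertilized-egg and 2-cell library as well. Only Klf2, VAX1 and Eloc, a subunit of elongin and of cullin ubiquitin ligases, carried symbols among the 17. 6 unigenes were at 0 in all 6 fertilized-egg and 2-cell libraries, Klf2 and 5 without a symbol.

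**Figure D1:**
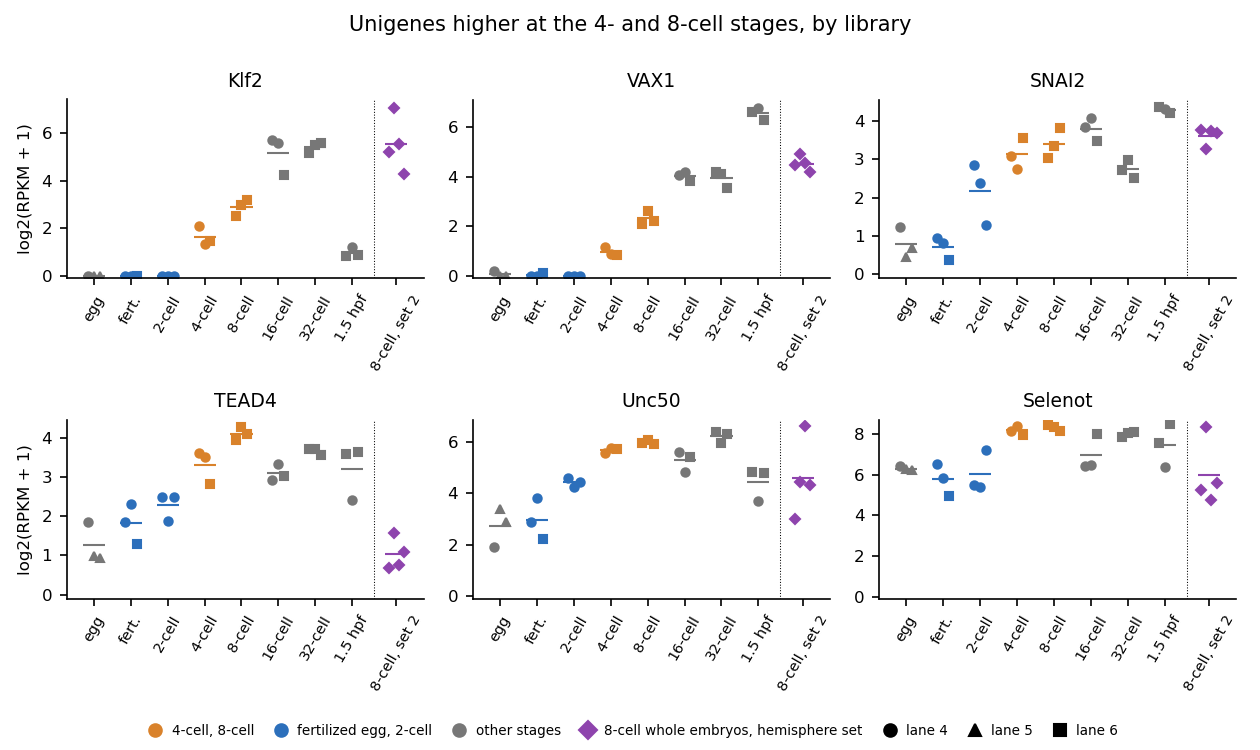
Levels on a log2(RPKM + 1) scale of 6 unigenes higher at the 4- and 8-cell stages, by library from unfertilized egg to 1.5 hpf, with the mean of each stage as a bar and the sequencing lane as the marker shape; diamonds right of the dotted line are the 4 whole-embryo 8-cell libraries of the hemisphere set, whose table was normalized separately. Klf2 and VAX1 leave 0 at the 4-cell stage, SNAI2 overlaps at 2 cells, and Unc50 and Selenot start from levels already present in the egg.

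Selenot, an endoplasmic reticulum selenoprotein, was at 247 to 343 RPKM in the 4- and 8-cell libraries (median 306) against 29.5 to 148 RPKM in fertilized eggs and 2-cell embryos (median 49.2). That was the steepest rise of any unigene with a symbol and non-overlapping groups (log2 difference 2.35 ± 0.39, limma adjusted p = 0.000116). Unc50, a Golgi membrane protein, was at 45.97, 52.2 and 51.2 RPKM in 4-cell and 61.3, 65.8 and 58.4 RPKM in 8-cell libraries, against 6.31, 12.9 and 3.59 RPKM in fertilized eggs and 22.7, 18.05 and 20.5 RPKM in 2-cell libraries. It climbed at each of these stages, with no overlap across the boundary (log2 difference 2.13 ± 0.27, limma adjusted p = 2.2e-06).

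Other large risers already present in the egg also had groups that did not overlap, and here and below a single level given for each side is the median of its 6 libraries unless called an average. MPI, which makes mannose 6-phosphate for glycosylation, had a median of 38.7 RPKM in 4- and 8-cell libraries against 11.1 RPKM in fertilized eggs and 2-cell embryos (log2 difference 1.91, limma adjusted p = 0.000138). SLC48A1, a haem transporter, had 480 RPKM in 4- and 8-cell libraries against 142 RPKM in fertilized eggs and 2-cell embryos (1.67, adjusted p = 0.000307). Cyct, the testis form of cytochrome c in mouse, had 2272 RPKM in 4- and 8-cell libraries against 722 RPKM in fertilized eggs and 2-cell embryos (1.56, adjusted p = 0.001), and FDX1, the ferredoxin of mitochondrial steroid and iron-sulphur metabolism, had 149 RPKM in 4- and 8-cell libraries against 52.9 RPKM in fertilized eggs and 2-cell embryos (1.46, adjusted p = 0.00118). Both encode mitochondrial electron carriers and rose while most respiratory-chain transcripts, given below, were lower. HPRT1, of purine salvage, had 840 RPKM in 4- and 8-cell libraries against 357 RPKM in fertilized eggs and 2-cell embryos (1.47, adjusted p = 0.00511), and Acp6, a lysophosphatidic acid phosphatase, had 23.2 RPKM in 4- and 8-cell libraries against 8.47 RPKM in fertilized eggs and 2-cell embryos (1.56, adjusted p = 0.000105).

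Single RNA-processing genes moved in both directions. Snrpf, a core Sm protein of the spliceosome, was at 99.6 to 187 RPKM in 4- and 8-cell libraries against 4.98 to 90.7 RPKM in fertilized eggs and 2-cell embryos (log2 difference 1.94 ± 0.47, limma adjusted p = 0.00702), and Snrpb, another Sm protein, averaged 409 RPKM in 4- and 8-cell libraries against 172 RPKM in fertilized eggs and 2-cell embryos. Of 4 unigenes of the large scaffold Prpf8, which may share reads, 3 were lower, and so was HNRNPU, at a median of 4.10 RPKM in 4- and 8-cell libraries against 14.7 RPKM in fertilized eggs and 2-cell embryos (log2 difference −1.70, limma adjusted p = 0.000354). Of 106 tested splicing genes 4 were higher and 11 lower, and no member was called lower after quantile normalization. These were 3.88% and 10.7% of the 103 members at 1 RPKM or more. Of all such unigenes 2.89% were higher and 17.3% lower, so the list was called lower less often. The list's median log2 difference, −0.01 among members at 1 RPKM or more, lay above that of all such unigenes.

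Ribosomal proteins rose as a group in summed level and in the median member, while few single members were called. Their summed RPKM was 485333 to 696321 in the 4- and 8-cell libraries and 296121 to 460730 in fertilized eggs and 2-cell embryos, without overlap. Of 82 tested, 8 were higher and 0 lower. The higher ones were 10.3% of the 78 members at 1 RPKM or more, beside 2.89% of all such unigenes. The median log2 difference was 0.63 for these 78 members and −0.39 for all such unigenes. Rps29 (OD_K21COV4_DN16392_c1_g2_i3), a zinc-binding protein of the small subunit, changed most, at 843 to 1463 RPKM in 4- and 8-cell libraries against 196 to 735 RPKM in fertilized eggs and 2-cell embryos (log2 difference 1.83 ± 0.39, limma adjusted p = 0.00168). Calls were 3 with quantile normalization, 3 with lane as a term and 42 in a fit of the 12 libraries alone, so how many members count as changed depends on the model. In whole 8-cell embryos of the hemisphere set the same 95 unigenes summed to 274143 to 398264 RPKM, inside or below the range of fertilized eggs and 2-cell embryos.

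Among the falling transcripts, those for mitochondrial energy production stood out by the share of members called. Of 51 tested genes of oxidative phosphorylation, which couples electron transport to ATP synthesis, 27 were lower and 0 higher: 55.1% of the 49 members at 1 RPKM or more, beside 17.3% of all such unigenes. Their median log2 difference was −1.51. The counts of lower members were 19 with quantile normalization, 25 after rescaling without ribosomal proteins, 21 with lane as a term and 12, with 1 higher, in the fit of the 12 libraries alone. The falling members came from complex I (NDUFA10, Ndufs7, NDUFA9), complex II (Sdhc), cytochrome c1 (CYC1), cytochrome oxidase (COX5A) and the ATP synthase (Atp5b, Atp5a1, ATP5H, ATP5O, ATP5G2, Atp5l).

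Atp5b, the catalytic beta subunit of the ATP synthase, was at 437, 418 and 107 RPKM in 4-cell and 87.3, 39.8 and 90.3 RPKM in 8-cell libraries. It was at 4827, 1239 and 466 RPKM in fertilized eggs and 926, 1482 and 870 RPKM in 2-cell libraries, so the highest 4-cell library lay just under the lowest fertilized egg (log2 difference −3.16 ± 0.39, limma adjusted p = 1.79e-06). ATP5H, a stalk subunit, had a median of 85.9 RPKM in 4- and 8-cell libraries against 606 RPKM in fertilized eggs and 2-cell embryos (−2.82 ± 0.35, adjusted p = 2.2e-06). NDUFA10, of complex I, had 3.37 RPKM in 4- and 8-cell libraries against 47.4 RPKM in fertilized eggs and 2-cell embryos (−3.07 ± 0.35, adjusted p = 8.29e-07), with overlapping groups.

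The lane pattern touches this group. The summed RPKM of the oxidative phosphorylation genes was 12479 to 23747 in 4- and 8-cell libraries against 12734 to 51522 in fertilized eggs and 2-cell embryos. Within lane 4 it was 17728 and 23747 in the pair of 4-cell libraries against 22675 to 51522 in fertilized eggs and 2-cell embryos, and within lane 6 it was 12479 to 16069 in 4- and 8-cell libraries against 12734 in the single fertilized-egg library 042. The median member differed by −0.94 on the log2 scale within lane 4 and by −0.22 within lane 6, and 11 of the 27 falling members had no overlap inside either lane. The part of the lane in this fall was not tested beyond those values.

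The pyruvate and citric acid cycle enzymes, a list chosen after these values were seen, fell without overlap in their sum. Together they reached 2745 to 6230 RPKM in 4- and 8-cell libraries against 8321 to 16293 RPKM in fertilized eggs and 2-cell embryos, and within lane 6 alone 2745 to 4868 RPKM in 4- and 8-cell libraries against 9547 RPKM in the fertilized-egg library 042. Of 33 tested, 18 were lower and 0 higher, and the count of lower members was 10 with quantile normalization and 11 in the fit of the 12 libraries alone. Citrate synthase (Cs) averaged 507 RPKM in 4- and 8-cell libraries against 2192 RPKM in fertilized eggs and 2-cell embryos, and PDHX, of the pyruvate dehydrogenase complex, had a median of 16.8 RPKM in 4- and 8-cell libraries against 125 RPKM in fertilized eggs and 2-cell embryos (log2 difference −2.61, limma adjusted p = 1.22e-05). In glycolysis, also chosen after its values were seen, 6 of 19 were lower and 0 higher. These 6 were 42.9% of the 14 members at 1 RPKM or more. The count of lower members was 1 with quantile normalization and 3 in the fit of the 12 libraries alone. ENO1, the enolase, fell to a median of 44.4 RPKM in 4- and 8-cell libraries against 252 RPKM in fertilized eggs and 2-cell embryos (−2.60, adjusted p = 2.2e-06).

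Single genes of energy storage and fuel use were among the largest falls. Ckmt2, mitochondrial creatine kinase, of which 1 of 4 unigenes was called, had a median of 71.3 RPKM in 4- and 8-cell libraries against 721 RPKM in fertilized eggs and 2-cell embryos (log2 difference −3.24 ± 0.44, limma adjusted p = 8.71e-06). PCCB, a propionyl-CoA carboxylase subunit of amino acid and odd-chain fatty acid breakdown, had 15.3 RPKM in 4- and 8-cell libraries against 134 RPKM in fertilized eggs and 2-cell embryos (−2.90, adjusted p = 9.08e-07). Gyg1, which primes glycogen, had 13.0 RPKM in 4- and 8-cell libraries against 91.2 RPKM in fertilized eggs and 2-cell embryos (−2.43, adjusted p = 5.75e-06). In none of the 3 did the groups overlap. The broader fatty-acid and amino-acid list, also chosen with its values in view, had 12 of 60 lower, 1 higher (ACAA2) and 47 not called. The lower members were 27.9% of those at 1 RPKM or more, beside 17.3% of all such unigenes. In the fit of the 12 libraries alone 3 were lower.

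**Figure D2:**
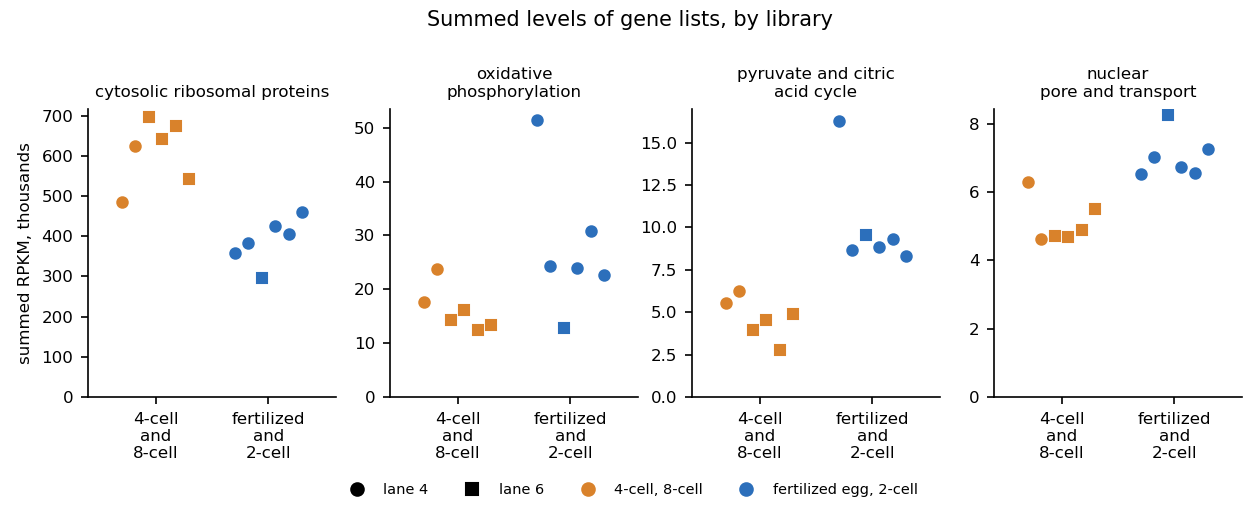
Summed RPKM (scaled as on the axis) of 4 gene lists in each of the 12 libraries, 4- and 8-cell embryos left of fertilized eggs and 2-cell embryos, with the sequencing lane as the marker shape. Ribosomal proteins are higher, and the pyruvate and citric acid cycle and nuclear pore lists lower, without overlap; oxidative phosphorylation overlaps, with the lane 6 fertilized egg among the 4- and 8-cell libraries.

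Of 4 tested unigenes of CA4, a carbonic anhydrase, 1 was called lower and 2 lay above 0. The called one (OD_K21COV4_DN17604_c3_g2_i3) fell furthest of all unigenes with a symbol and groups without overlap. Its levels were 160, 141 and 53.6 RPKM in 4-cell and 39.9, 20.6 and 21.8 RPKM in 8-cell libraries, against 1472, 686 and 255 RPKM in fertilized eggs and 311, 720 and 498 RPKM in 2-cell libraries. The log2 difference was −3.36 ± 0.36 (limma adjusted p = 4.14e-07). Every stage from the egg on was lower in the mean up to 8 cells, at 1657, 804, 510, 118 and 27.4 RPKM, and the 16-cell mean was 90.9 RPKM.

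Single maternal transcripts for regulators of transcription fell, while of the zinc-finger factors at 1 RPKM or more 11.7% were lower, beside 17.3% of all such unigenes. Vdr, a nuclear receptor of the vitamin D receptor type, was at 6.90, 2.62 and 4.33 RPKM in 4-cell and 2.41, 1.601 and 1.41 RPKM in 8-cell libraries, against 21.5, 22.9 and 39.4 RPKM in fertilized eggs and 13.6, 22.6 and 24.5 RPKM in 2-cell libraries. The groups were far apart (log2 difference −2.64 ± 0.30, limma adjusted p = 5.86e-07), and the mean stayed under 4 RPKM from the 8-cell stage up to 10 hpf. YY1, a zinc-finger factor that works as repressor and activator, was at 33.5, 29.1 and 17.4 RPKM in 4-cell and 12.3, 5.58 and 9.23 RPKM in 8-cell libraries, against 52.8 to 93.1 RPKM in fertilized eggs and 2-cell embryos (−2.17 ± 0.24, adjusted p = 5.86e-07). NKX2-6, a homeobox gene of the heart and pharynx in mouse, was at 31.9 to 81.9 RPKM in 4- and 8-cell libraries against 112 to 167 RPKM in fertilized eggs and 2-cell embryos (−1.61 ± 0.24, adjusted p = 2.56e-05) and averaged 7.99 RPKM at 16 cells. All 3 kept their call with lane as a term and with quantile normalization.

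Further factors were lower, and their calls differed in how they held under scaling. CEBPD, a bZIP factor of stress and differentiation, had a median of 0.802 RPKM in 4- and 8-cell libraries against 13.1 RPKM in fertilized eggs and 2-cell embryos (log2 difference −2.65, limma adjusted p = 0.000374, 0.062 with quantile normalization), and its later mean reached 59.0 RPKM at 8 hpf. FOXO6, a forkhead factor of the insulin pathway, had 26.1 RPKM in 4- and 8-cell libraries against 114.1 RPKM in fertilized eggs and 2-cell embryos (−1.80, adjusted p = 6.91e-05, kept with quantile normalization). Of homeobox genes 8 of the 85 tested averaged 1 RPKM or more over the 12 libraries, of which 1 was higher (VAX1) and 2 were lower, NKX2-6 among them. Of 72 tested T-box, bHLH, Fox, Sox, GATA and ETS genes 5 were lower and 0 higher, all among the 14 at 1 RPKM or more. These 5 were 35.7% of only 14 members, beside 17.3% of all such unigenes.

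**Figure D3:**
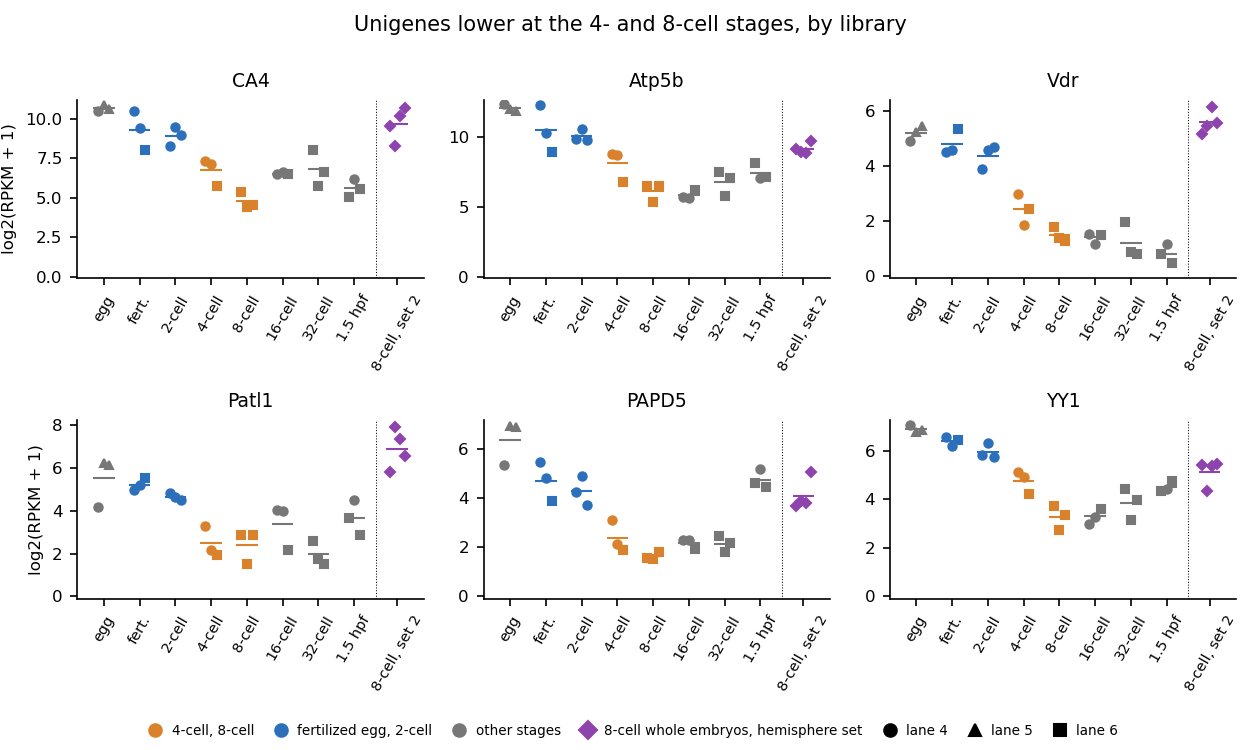
Levels on a log2(RPKM + 1) scale of 6 unigenes lower at the 4- and 8-cell stages, drawn as for the rising unigenes, with diamonds for whole 8-cell embryos of the hemisphere set. In the staged set each drops between 2 and 4 cells without overlap, while the diamonds lie above all 8-cell libraries of the staged set for all 6.

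Single genes of the machinery that silences and degrades maternal RNA were among the transcripts that fell, while most members were not called. Of 72 tested genes of mRNA decay and deadenylation 18 were lower and 3 higher. These were 26.2% and 4.62% of members at 1 RPKM or more, beside 17.3% and 2.89% of all such unigenes. The count of lower members was 6 with quantile normalization and 19 with lane as a term. Of all such unigenes 4.19% and 13.2% were lower in these 2 settings. The summed RPKM of the list went the other way, at 4175 to 6691 in 4- and 8-cell libraries and 3394 to 4796 in fertilized eggs and 2-cell embryos, with overlap. Patl1, which links deadenylation to decapping, was at 8.82, 3.51 and 2.87 RPKM in 4-cell and 6.29, 1.81 and 6.35 RPKM in 8-cell libraries against 21.8 to 44.6 RPKM in fertilized eggs and 2-cell embryos (OD_K29COV10_DN19733_c0_g4_i1, log2 difference −2.49 ± 0.46, limma adjusted p = 0.000424). A second Patl1 unigene, which may share its reads, moved alike (−2.47 ± 0.51, adjusted p = 0.00148). Lsm14b, an RNA-binding repressor stored in oocytes, had a median of 10.3 RPKM in 4- and 8-cell libraries against 55.8 RPKM in fertilized eggs and 2-cell embryos (−2.08, adjusted p = 9.01e-05), and Ddx6, the helicase of repressed mRNA granules, had 2.89 RPKM in 4- and 8-cell libraries against 16.6 RPKM in fertilized eggs and 2-cell embryos (−2.15, adjusted p = 0.000236).

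Other called members came from several steps of decay. The scaffold Cnot1, the deadenylase subunit CNOT6, the poly(A) nuclease subunit PAN2, the exonuclease XRN1 and the Argonaute AGO2 were lower, while the higher members were EXOSC8 of the exosome and the small Sm-like proteins Lsm5 and LSM1. PAPD5, a non-canonical poly(A) polymerase outside the list, had a median of 2.62 RPKM in 4- and 8-cell libraries against 22.7 RPKM in fertilized eggs and 2-cell embryos (log2 difference −2.51 ± 0.36, limma adjusted p = 1.66e-05) and returned to a mean of 26.9 RPKM at 1.5 hpf. Ppp2r2a, a regulatory subunit of the phosphatase PP2A, fell to a median of 7.18 RPKM in 4- and 8-cell libraries against 57.1 RPKM in fertilized eggs and 2-cell embryos (−2.86 ± 0.49, adjusted p = 0.000202).

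Of 14 tested germ-line genes 3 were lower, 0 higher and 11 not called, and 1 was lower with quantile normalization. These 3 were 23.1% of only 13 members at 1 RPKM or more, beside 17.3% of all such unigenes. Ddx4 (Vasa), the helicase of germ cells, was at 31.1, 14.3 and 11.7 RPKM in 4-cell and 16.2, 14.9 and 25.7 RPKM in 8-cell libraries against 34.9 to 72.1 RPKM in fertilized eggs and 2-cell embryos, without overlap (OD_K29COV4_DN37257_c2_g1_i3, log2 difference −1.39 ± 0.31, limma adjusted p = 0.00253). TDRD1, a Tudor protein of the piRNA pathway, had a median of 9.74 RPKM in 4- and 8-cell libraries against 24.1 RPKM in fertilized eggs and 2-cell embryos (−1.39, adjusted p = 0.0217, lost without single libraries). Of the 4 Ddx4 unigenes, which may share reads, 2 were lower, and 1 that was not called averaged 17.3 RPKM in 4- and 8-cell libraries against 10.7 RPKM in fertilized eggs and 2-cell embryos. The 6 egg and germ-line marker unigenes summed to 39.1 to 75.4 RPKM in 4- and 8-cell libraries and 76.9 to 185 RPKM in fertilized eggs and 2-cell embryos. The other cell types that could enter these samples left little RNA: 46 of 53 sperm markers stayed below 1 RPKM in all 12 libraries and summed to 4.52 to 18.03 RPKM in 4- and 8-cell libraries and 5.18 to 12.8 RPKM in the others, and all 20 gut markers and the notochord gene T stayed below 1 RPKM. The larval muscle markers summed to 105 to 155 RPKM in 4- and 8-cell libraries against 43.4 to 117 RPKM in fertilized eggs and 2-cell embryos, nearly all from a single Myl6 unigene, and 23 of the 29 stayed below 1 RPKM. None of these sperm, gut, muscle and notochord markers was called, and 10 sperm, 6 gut and 5 muscle markers were at 0 throughout.

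Nuclear import and chromatin genes were lower in many members as deposited, and in few with quantile normalization. Of 50 tested genes of the nuclear pore and transport 18 were lower and 1 higher, with a median log2 difference of −0.71. The lower ones were 36% of the 50, beside 17.3% of all unigenes at 1 RPKM or more. The list summed to 4622 to 6305 RPKM in 4- and 8-cell libraries against 6547 to 8254 RPKM in fertilized eggs and 2-cell embryos without overlap. RANBP2, the cytoplasmic filament protein of the pore, had a median of 9.70 RPKM in 4- and 8-cell libraries against 33.01 RPKM in fertilized eggs and 2-cell embryos (−1.78, limma adjusted p = 0.00104), and the importin Ipo4 had 74.6 RPKM in 4- and 8-cell libraries against 244 RPKM in fertilized eggs and 2-cell embryos (−1.66, adjusted p = 0.000633). Scaling bears on this list, since 2 were lower with quantile normalization, 11 after rescaling without ribosomal proteins and 12 with lane as a term. Of 103 chromatin modifiers 23 were lower and 2 higher (27.7% and 2.41% of the 83 members at 1 RPKM or more). The count of lower ones was 4 with quantile normalization and 23 with lane as a term. With quantile normalization 4.19% of all unigenes at 1 RPKM or more were lower. Smarcb1, a core subunit of SWI/SNF remodelers, had 10.2 RPKM in 4- and 8-cell libraries against 46.5 RPKM in fertilized eggs and 2-cell embryos (−1.95, adjusted p = 3.82e-05), and SUZ12, of the Polycomb repressive complex that methylates histone H3, had 2.37 RPKM in 4- and 8-cell libraries against 8.18 RPKM in fertilized eggs and 2-cell embryos (−1.31, adjusted p = 0.000886).

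Cell-cycle genes were lower about as often as all expressed unigenes. Of 109 tested 16 were lower and 0 higher, and the share among members at 1 RPKM or more, 17.2%, was close to the 17.3% of all such unigenes. CDC25C, the phosphatase that triggers mitotic entry, was at 10.2, 5.57 and 7.29 RPKM in 4-cell and 8.43, 5.65 and 7.10 RPKM in 8-cell libraries, against 30.05, 29.5 and 24.1 RPKM in fertilized eggs and 18.01, 26.03 and 21.3 RPKM in 2-cell libraries (log2 difference −1.63 ± 0.23, limma adjusted p = 1.69e-05). The Aurora kinase Aurkb, of the chromosomal passenger complex, had a median of 14.9 RPKM in 4- and 8-cell libraries against 51.5 RPKM in fertilized eggs and 2-cell embryos (−1.74, adjusted p = 0.000238). DNA replication genes had 5 of 50 lower (RPA1, POLD2, Pole, Cdt1, Rfc1) and PCNA, the sliding clamp, higher. These 5 were 10.6% of the 47 members at 1 RPKM or more, below the 17.3% of all such unigenes. Of 19 tested histones and histone chaperones 1 was higher and 1 lower. The higher one was Hist1h3b, at 3.38 to 24.9 RPKM in 4- and 8-cell libraries against 0.869 to 2.91 RPKM in fertilized eggs and 2-cell embryos (log2 difference 1.45, adjusted p = 0.0377, 0.41 with lane as a term), and the lower one CHAF1B, a chromatin assembly factor subunit.

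Signalling lists held few calls, and their shares rest on few members. In the TGF-beta and BMP list 6 of 36 were lower (33.3% of 18 members at 1 RPKM or more, beside 17.3% of all such unigenes), among them the receptors ACVR2A and TGFBR2 and the BMP transducer SMAD5, which had a median of 11.5 RPKM in 4- and 8-cell libraries against 44.9 RPKM in fertilized eggs and 2-cell embryos (log2 difference −1.85 ± 0.28, limma adjusted p = 4.54e-05). In the Wnt list 4 of 33 were lower (26.7% of 15), the receptor Fzd2 at 97.8 RPKM in 4- and 8-cell libraries against 297 RPKM in fertilized eggs and 2-cell embryos (−1.43 ± 0.23, adjusted p = 7.51e-05), with the co-repressor TLE3, the scaffold APC and the kinase GSK3B. In the FGF and MAPK list 6 of 54 were lower (20.7% of 29, near that of all such unigenes), the receptor Fgfr2 at 24.9 RPKM in 4- and 8-cell libraries against 59.8 RPKM in fertilized eggs and 2-cell embryos (−1.40 ± 0.28, adjusted p = 0.00111). Of 7 tested NOTCH2 unigenes 1 was called lower and 2 lay above 0. The called one had overlapping groups, at 25.9 to 127 RPKM in 4- and 8-cell libraries against 90.8 to 461 RPKM in fertilized eggs and 2-cell embryos (−1.51 ± 0.37, adjusted p = 0.00748). With quantile normalization 1, 2 and 2 members of the first 3 lists were lower.

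**Figure D4:**
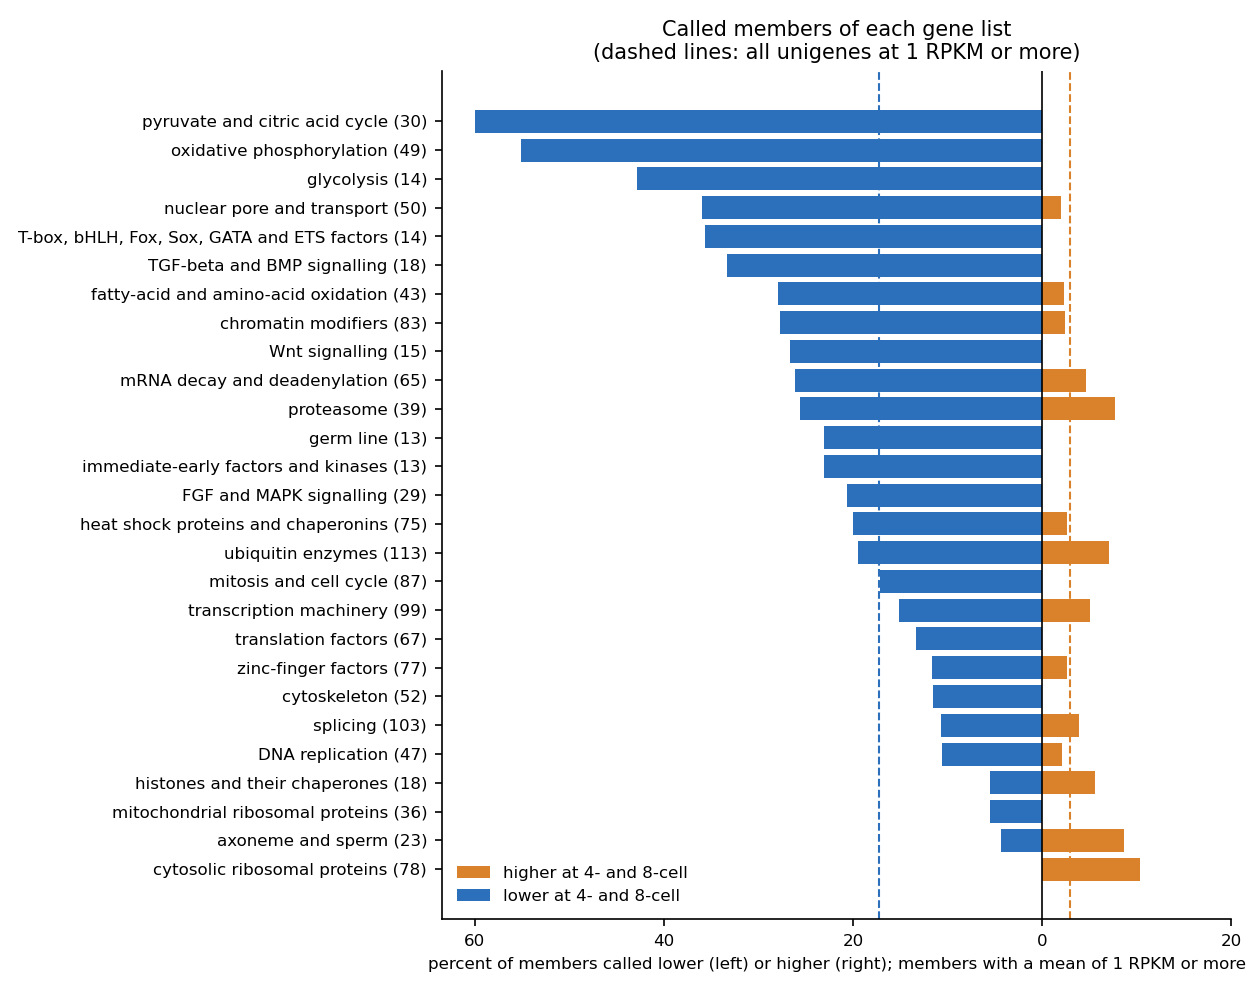
Percent of the members of each gene list called lower (left) or higher (right) at the 4- and 8-cell stages, among members with a mean of 1 RPKM or more over the 12 libraries (their number in brackets), with dashed lines at 17.3% and 2.89% for all such unigenes. Oxidative phosphorylation and the pyruvate and citric acid cycle have the largest shares on the left, cell-cycle genes lie near the dashed line, and ribosomal proteins have no lower member.

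Protein turnover genes moved in both directions, and chaperones, translation factors and the cytoskeleton were lower at shares near or below the background. Of members at 1 RPKM or more, 25.6% of proteasome, 19.5% of ubiquitin, 20.0% of chaperone, 13.4% of translation-factor and 11.5% of cytoskeleton genes were lower. Of all such unigenes 17.3% were lower and 2.89% higher. Higher proteasome members made up 7.69%. Of 43 proteasome genes 10 were lower and 3 higher, with Psmb7, a catalytic core subunit, at a median of 149 RPKM in 4- and 8-cell libraries against 370 RPKM in fertilized eggs and 2-cell embryos (log2 difference −1.71, limma adjusted p = 0.000173). Ubiquitin enzymes had 22 of 155 lower and 8 higher, and the higher ones were 7.08% of members at 1 RPKM or more. Among them was the deubiquitinase USP2 at 7.12 RPKM in 4- and 8-cell libraries against 3.11 RPKM in fertilized eggs and 2-cell embryos (1.06, adjusted p = 0.00102). Chaperones had 15 of 84 lower, among them the mitochondrial chaperonin HSPD1 at 13.5 RPKM in 4- and 8-cell libraries against 59.3 RPKM in fertilized eggs and 2-cell embryos (−1.87, adjusted p = 0.000463), and 2 higher. Translation factors had 9 of 72 lower and 0 higher, as for the release factor GSPT2 at 40.8 RPKM in 4- and 8-cell libraries against 124.4 RPKM in fertilized eggs and 2-cell embryos (−1.75, adjusted p = 0.000255). The actins, whose unigenes may share reads, had 2 of 3 Acta1 and 2 of 5 Actg1 unigenes lower. Acta1 (OD_K29COV8_DN18832_c0_g1_i5) was at 16.8 RPKM in 4- and 8-cell libraries against 95.6 RPKM in fertilized eggs and 2-cell embryos (−2.26, adjusted p = 6.87e-05), and its mean was 1540 RPKM at 3 hpf.

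The other lists held few calls. The RNA polymerase and Mediator list had 15 of 105 lower and 5 higher. These were 15.2% and 5.05% of members at 1 RPKM or more, beside 17.3% and 2.89% of all such unigenes. Of 5 unigenes of Cdk9, the elongation kinase, 1 was lower, and POLR1D, a shared subunit of polymerases I and III, was higher. Zinc-finger genes had 9 of 146 lower and 2 higher (Klf2 and SNAI2). Among immediate-early factors and kinases 1 PIM3, 1 CREB1 and 1 CREBBP unigene were lower, 23.1% of the 13 members at 1 RPKM or more. The share of all such unigenes was 17.3%. Of the 14 PIM3 unigenes 8 lay above 0, and the CREBBP call was lost without single libraries. Mitochondrial ribosomal proteins had 2 of 37 lower. Axoneme genes had Ccdc114 lower and 2 of 4 Cfap20 unigenes higher. Muscle had Ckmt2 and LDB3 lower, and the gut list had CTSL and 2 of 3 CPA3 unigenes lower and CHIT1 higher. The 8 unigenes listed for the mitochondrial genome averaged below 1 RPKM and none was called.

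Among the single steps, 4-cell minus 2-cell had the largest medians. All 240 risers lay above 0 and all 1385 fallers below 0 in 4-cell minus 2-cell, which the choice of the 12 libraries favours. Over the 240 the median log2 difference was 0.54 for 2-cell minus fertilized egg, 0.80 for 4-cell minus 2-cell and −0.04 for 8-cell minus 4-cell. Over the 1385 these medians were −0.25, −1.22 and −0.29. Tested one step at a time, 0 unigenes differed between 2-cell and fertilized egg (213 at an unadjusted p under 0.05), 1 between 4-cell and 2-cell (Klf2, 0.00535% of those tested) and 4 between 8-cell and 4-cell (3 higher, 0.016%, and 1 lower, 0.00535%, with 438 at an unadjusted p under 0.05), so the joined stages carry the calls.

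None of the 4 unigenes of the last step carried a symbol. OD_K25COV6_DN12991_c0_g3_i4 was at 4.48, 4.18 and 5.28 RPKM in 8-cell against 2.18, 0 and 0.585 RPKM in 4-cell libraries, and OD_K25COV10_DN12524_c0_g1_i1 at 5.70, 4.25 and 2.61 RPKM against 0.501, 0.839 and 0.754 RPKM (limma adjusted p = 0.00264 for both). The third, OD_K25COV4_DN10762_c0_g1_i1, was at 0.887, 1.81 and 2.27 RPKM in 8-cell against 0.209, 0 and 0 RPKM in 4-cell libraries (limma adjusted p = 0.0372) and was among the vegetal-higher unigenes, at 20.7 ± 7.36 RPKM in vegetal hemispheres and 0 in all 4 animal hemispheres. All 3 were at 0 in every fertilized-egg and 2-cell library. OD_K29COV15_DN9735_c0_g1_i2 was lower, at 8.38, 2.17 and 8.69 RPKM in 8-cell against 29.6, 34.7 and 16.3 RPKM in 4-cell libraries (limma adjusted p = 0.0219). All 8-cell libraries were on lane 6 and 2 of the 3 4-cell libraries on lane 4, and this call was lost with lane as a term and with quantile normalization.

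Libraries on either side of the comparison, whose levels it did not use, mostly showed the same directions. In 16-cell embryos minus unfertilized eggs, 463 unigenes were higher (2.48%) and 1005 lower (5.37%). The 240 risers held 102 of the 463 (42.5% of the 240 and 22% of the 463) and 0 of the 1005, and the 1385 fallers held 667 of the 1005 (48.2% and 66.4%) and 1 of the 463. In that contrast 209 of the 240 were above 0 (87.1%) and 1278 of the 1385 at or below 0 (92.3%), while 29.5% and 70.5% of all tested unigenes were. Those background shares include many unigenes hardly present in the egg. An egg mean below 1 RPKM was found for 56.7% of all tested unigenes, 13.3% of the risers and 0.722% of the fallers. Lanes are mixed there too, with 16-cell libraries on lanes 4 and 6 and eggs on lanes 4 and 5, and with lane as a term 248 were higher and 530 lower. Scaling bears on this contrast as well, since 580 were higher and 696 lower with quantile normalization.

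In whole 8-cell embryos of the hemisphere set the median of the fallers was not as low as in the staged 4- and 8-cell libraries. That table was normalized separately and made from libraries that were not strand-specific, so levels are set side by side without a test. The 1385 fallers had a median of 8.32 RPKM in the 4- and 8-cell libraries and 26.3 RPKM in fertilized eggs and 2-cell embryos, and 29.7 RPKM in the 8-cell embryos of the hemisphere set. All 7882 unigenes at 1 RPKM or more also stood higher in that set, with medians of 14.32, 23.72 and 32.75 RPKM in the same order. By mean log2 level there, 301 of the fallers (21.7%) lay nearer to the 4- and 8-cell libraries and 1084 (78.3%) nearer to fertilized eggs and 2-cell embryos, where 67.4% of all 7882 unigenes at 1 RPKM or more did. Of the fallers 42.5% were lower in these 8-cell embryos than in fertilized eggs and 2-cell embryos, beside 32.8% of all such unigenes. Vdr averaged 48.4 ± 14.6 RPKM, CA4 972 ± 579 RPKM and Atp5b 573 ± 161.1 RPKM in these embryos (SD, n = 4), well above the staged 8-cell libraries. Summed oxidative phosphorylation RPKM was 14040 to 27426 there. Across the 18704 unigenes the mean log2 levels of these embryos correlated with the staged fertilized-egg mean at r = 0.954, the 2-cell at 0.954, the 4-cell at 0.939 and the 8-cell at 0.928 (unigenes are not independent replicates).

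Among the risers the second set divided the genes. The 240 had a median of 50.2 RPKM in the 4- and 8-cell libraries and 25.4 RPKM in fertilized eggs and 2-cell embryos, and 36.6 RPKM in its 8-cell embryos. There 117 (48.8%) lay nearer to the 4- and 8-cell libraries, beside 32.6% of all unigenes at 1 RPKM or more. Of the risers 67.9% lay above fertilized eggs and 2-cell embryos, close to the 67.2% of all such unigenes. Klf2 (58.9 ± 51.4 RPKM), VAX1 (22.6 ± 4.82 RPKM) and SNAI2 (11.4 ± 1.87 RPKM), all below 1 RPKM in fertilized eggs of the staged set, were present in its 8-cell embryos, and Klf2 and VAX1 were higher there than in any staged 8-cell library. The staged 16-cell means were 39.2 RPKM for Klf2 and 15.5 RPKM for VAX1. TEAD4 was at 1.10 ± 0.63 RPKM there, against a mean of 1.50 RPKM in unfertilized eggs of the staged set. Selenot and Unc50 varied widely between its 4 libraries, at 25.9 to 326 and 6.93 to 96.9 RPKM.

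Followed to 10 hpf, the risers and the fallers had different courses. The median of the 240 was 16.8 RPKM in unfertilized eggs, 18.9 in fertilized eggs, 29.8 at 2 cells, 50.8 at 4 cells, 49.1 at 8 cells, 38.9 at 16 cells and 37.02 at 1.5 hpf. That of the 1385 was 36.3, 30.7, 22.04, 9.01, 6.82, 10.9 and 10.7 RPKM at the same stages. The risers peaked most often at 4 cells (89 of 240) and 8 cells (46), which the comparison favours, and next at 5 hpf (29). The fallers peaked most often in the unfertilized egg (631 of 1385) or fertilized egg (213), and then at 3 hpf (180) and 5 hpf (156). In 695 of the 1385 (50.2%) some stage from 2.5 to 10 hpf had a mean above that of fertilized eggs and 2-cell embryos, as in 185 of the 240 (77.1%) and 83.0% of all tested unigenes. PAPD5, CEBPD and Acta1 returned in this way, and Vdr and NKX2-6 did not.

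**Figure D5:**
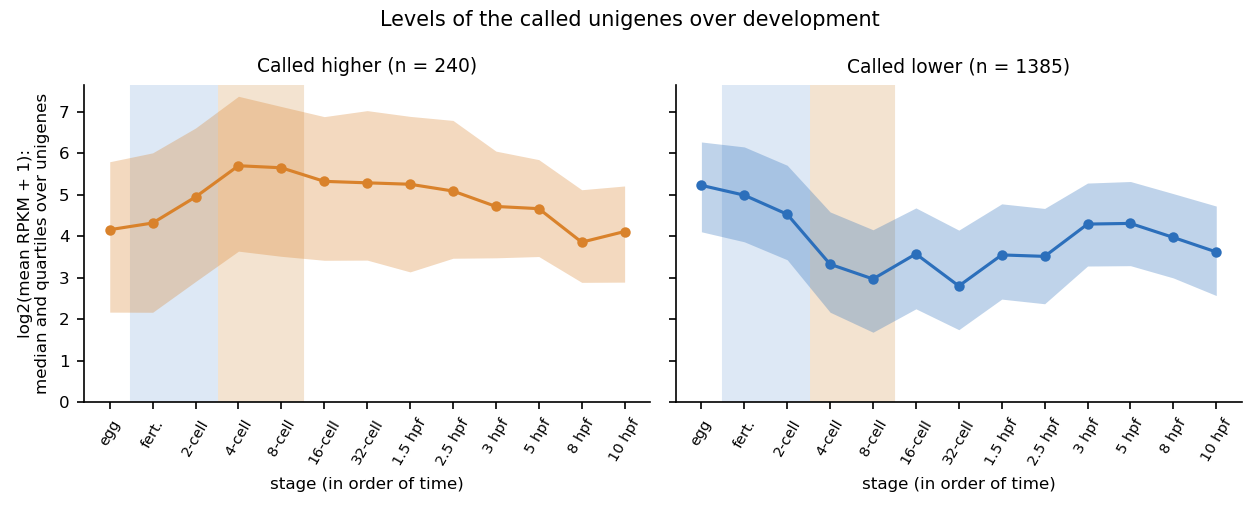
Median and quartiles over unigenes of log2(mean RPKM + 1) at 13 stages, for the 240 unigenes called higher (left) and the 1385 called lower (right), with the compared stages shaded (4- and 8-cell in orange, fertilized egg and 2-cell in blue). The shaded steps were used to choose the unigenes; outside them the fallers are highest in the egg and the risers keep a raised median up to 1.5 hpf.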

How the data were processed

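The deposited tables hold RPKM per unigene, made by the authors after HISAT2 alignment per the submitters' processing notes (version, counter and build not given in the sources used here). Reads, lanes, percent aligned and the fraction headed %SS came from the authors' deposited sequencing table. A further 148 columns of per-library values were not used. From 19277 unigenes (10122 with a symbol), those with 1 RPKM or more in at least 2 of 43 staged libraries (18704) or 4 of 24 hemisphere libraries (15697) were analysed as log2(RPKM + 1), a pseudocount that understates changes of low genes. limma 3.58.1 in R 4.3.3 (lmFit, eBayes with a trend) was fitted with 1 mean per group (15 and 6 groups, 28 and 18 residual degrees of freedom), and p-values were adjusted by Benjamini-Hochberg over all unigenes tested, with a threshold of 0.05. The script was tested on simulated data. Figures were drawn with matplotlib 3.10.9 under Python 3.11.15, and tables made with pandas 2.3.3. Counts per unigene were not used here, so no counting intervals are given. The comparison with whole 8-cell embryos of the hemisphere set was chosen after seeing the data.

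Named genes are the 15 unigenes with a symbol and up to 2 without that changed most in each direction with groups that did not overlap, the 3 members of each list with the smallest p among those called, and the largest changes of the single steps. Members and lists were chosen with earlier results of these data known, and 3 lists (pyruvate and citric acid cycle, fatty-acid and amino-acid oxidation, glycolysis) after values were seen. Genes named beyond the rule (such as PCNA, Snrpb, Prpf8, Cs, Cnot1, CNOT6, PAN2, XRN1, AGO2, EXOSC8, Lsm5, LSM1, GSK3B, Cdt1, Rfc1, ACAA2, CHIT1, Eloc) were chosen after their values were seen. Unigenes of the same symbol may share reads. A gene named by its symbol stands for the unigene whose values are given. At least 1 other unigene of CA4, Ckmt2, NOTCH2, Cdk9, PIM3, Fzd2, FOXO6, TGFBR2, HSPD1 and Acp6, among others, lay on the other side of 0. Equal numbers paired the hemisphere libraries, whose deviations correlated at 0.668, 0.701, 0.55 and 0.688. Some called genes are not reported here.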

Additional observations from a re-analysis of the deposited data

Results flagged for a closer look

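Within groups of 6 libraries, 17 of 84 groups held a library whose gap to the nearest other library exceeded Dixon's 95% critical value. About 4.2 would be the number for independent groups of normally distributed values. These groups share the same libraries and join stages, so that number is no measure of chance here. Fertilized-egg library 010 was the high one for the pyruvate and citric acid cycle sum (16290 RPKM, the other 5 libraries 8321 to 9547), Ckmt2 (2453 RPKM, others 431.5 to 889.8), Atp5b (4827 RPKM, others 466.3 to 1482), PCCB (461.7 RPKM, others 107.1 to 194.8), ATP5H (1936 RPKM, others 454.9 to 868.8), ENO1 (527.1 RPKM, others 181.8 to 283.9) and OD_K21COV8_DN16163_c2_g2_i4 (1537 RPKM, others 202.7 to 586.9).

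The 4-cell library 036 was the high one among 4- and 8-cell libraries for Ppp2r2a (24.81 RPKM, others 3.141 to 9.819), CEBPD (3.02 RPKM, others 0.4056 to 1.163), PAPD5 (7.749 RPKM, others 1.86 to 3.369) and Atl1 (7.658 RPKM, others 1.023 to 2.959). Fertilized-egg library 042 stood apart for VAX1 (0.0673 RPKM, others 0), FDX1 (20.4 RPKM, others 49.45 to 55.32), CEP120 (47.58 RPKM, others 8.245 to 22.8) and OD_K25COV15_DN8079_c0_g3_i1 (34.22 RPKM, others 7.614 to 15.34), and 2-cell library 014 for Cyct (1882 RPKM, others 442.3 to 857.5) and OD_K21COV4_DN16765_c2_g5_i2 (65.6 RPKM, others 11.6 to 22.9). Each of the unigenes named here was still called when any 1 library was left out.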

How the results depend on the processing

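No named result changed direction under 26 settings. Of the 34 unigenes with the largest changes, calls lost without any 1 library numbered 0, and 31 were kept with quantile normalization, 34 with lane as a term, 34 after rescaling without ribosomal proteins, 18 within lane 4, 27 within lane 6 (where 1 fertilized-egg library is assumed to vary like the other groups) and 2 with %SS as a covariate (Klf2 and VAX1). Of 118 named, 11 were lost without some library (APC, CREBBP, Ddx4 OD_K21COV15_DN8752_c0_g3_i1, EIF4A3, Hist1h3b, LDB3, Mrpl2, Pole, Rps15, TDRD1 and USF1). The 240 higher calls became 435 (12 libraries alone), 368 (the same with 2 means), 400 (filter on 18 early libraries), 459 (reads as a covariate), 419 (rescaled), 6 (%SS), 66 (lane 4) and 133 (without 042 and 043), and the 1385 lower calls 373 (lane as a term, 12 libraries), 394 (quantile), 3 (%SS) and 121 (lane 4). Leaving out each library gave 137 to 246 higher and 882 to 1546 lower. Higher calls fell to 142, 148, 141, 137 and 154 without 013, 037, 030, 044 or 042, and lower calls to 887, 882 and 896 without 013, 043 or 044. The cause of these moves was not tested.

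The 4 calls of 8-cell minus 4-cell became 0 (12 libraries), 7 (early filter), 1 (pseudocount 0.1) and 7 (quantile), with 0 lower among the 4 with lane as a term, and 1 to 19 without a library (19 without 043). The 1 call of 4-cell minus 2-cell became 0 (12 libraries), 4 (pseudocount 0.1) and 4 (quantile), with 0 to 50 (50 without 036, 0 without 012 or 013, and without 014 a single lower call in place of Klf2). For 2-cell minus fertilized egg there was 1 call with quantile normalization and 0 to 1 without a library. The 16-cell minus egg calls became 248 higher and 530 lower with lane as a term, and 219 to 607 and 730 to 1321 without a library. They were 580 higher and 696 lower with quantile normalization. The 63 hemisphere calls became 34 in a fit of 8 libraries, 45 to 66 without a library, and 61 with the replicate block. No paired analysis was possible because the staged libraries share no replicate numbers between stages. Depth ran over 4-fold between the 12 libraries, and per-unigene counts were not used.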
